A study of Mus musculus with 4 samples.

Results

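The Sox genes described here are 10 members of the family of transcription factors related to the sex-determining gene Sry: Sox1, Sox2, Sox3, Sox4, Sox5, Sox6, Sox8, Sox9, Sox11 and Sox21. They were taken by gene symbol, as every probe set of the array whose single annotated symbol was one of these names, which gave 36 probe sets of 45101 and 10 genes of 18193. Expression was measured on 4 Affymetrix arrays, 1 per kind of mouse cell. The ES array held undifferentiated embryonic stem cells, and the labels describe ES cells carrying an HB9-GFP reporter, kept on mitomycin C-treated embryonic fibroblasts in 15% serum with 1000 U/ml leukemia inhibitory factor. A further array is labelled as HB9-GFP+ cells, sorted on day 8 of a motor neuron differentiation with retinoic acid (0.1 uM), purmorphamine (0.2 uM) and Sonic hedgehog given from day 5 to day 9. The stated end of these factors is later than the stated sort. HB9, encoded by Mnx1, is a homeodomain factor of motor neurons, and the reporter was carried as a transgene. The Sox1 array held sorted Sox1 neural stem cells, for which no culture or sort method is stated, and the granule array held cerebellar granule cells of postnatal day 6.

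All Sox proteins bind DNA through a high-mobility-group (HMG) box, and they usually act together with a partner factor bound beside them. The family is split into lettered subgroups by the sequence of that box. SoxB1 factors (Sox1, Sox2, Sox3) hold cells in a progenitor state, Sox2 doing so in ES cells with the POU factor Oct4, the product of Pou5f1. Sox21, of SoxB2, counteracts SoxB1 in the neural tube. SoxC factors (Sox4, Sox11) act in neurons as they differentiate. SoxD factors (Sox5, Sox6) and SoxE factors (Sox8, Sox9) are known for roles in cartilage and in glia.

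The 250 bases before the annotated start site are shown for the genes whose signals set the pattern below: Sox1 and Sox21, which stood apart in Sox1 cells, Sox2, which was detected on every array, and both SoxC genes. They are from RefSeq on GRCm38.p6, which held such a window for 8 of the 10 members, not for Sox3 or Sox9. Capitals mark matches on either strand to the CCAAT box (CCAAT), the Sox core (ACAAAG or ACAATG) and 7 bases of the octamer bound by POU factors (ATGCAAA).
Sox1, chr8:12395269-12395518, plus strand: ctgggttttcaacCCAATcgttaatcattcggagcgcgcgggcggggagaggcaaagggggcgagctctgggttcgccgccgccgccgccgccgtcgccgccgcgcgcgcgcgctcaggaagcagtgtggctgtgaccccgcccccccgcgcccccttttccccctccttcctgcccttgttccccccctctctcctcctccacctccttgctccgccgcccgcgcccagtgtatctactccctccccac
Sox21, chr14:118237031-118237280, minus strand: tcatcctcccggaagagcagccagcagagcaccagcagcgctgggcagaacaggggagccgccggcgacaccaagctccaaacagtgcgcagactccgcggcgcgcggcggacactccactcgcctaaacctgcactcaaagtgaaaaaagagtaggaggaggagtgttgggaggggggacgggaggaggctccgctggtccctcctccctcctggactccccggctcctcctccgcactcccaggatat
Sox2, chr3:34649745-34649994, plus strand: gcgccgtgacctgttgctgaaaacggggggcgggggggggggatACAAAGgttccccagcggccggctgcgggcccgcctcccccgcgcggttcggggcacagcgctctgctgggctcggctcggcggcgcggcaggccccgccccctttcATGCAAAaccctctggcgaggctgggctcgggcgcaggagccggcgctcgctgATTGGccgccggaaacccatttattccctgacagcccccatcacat
Sox4, chr13:28953700-28953949, minus strand: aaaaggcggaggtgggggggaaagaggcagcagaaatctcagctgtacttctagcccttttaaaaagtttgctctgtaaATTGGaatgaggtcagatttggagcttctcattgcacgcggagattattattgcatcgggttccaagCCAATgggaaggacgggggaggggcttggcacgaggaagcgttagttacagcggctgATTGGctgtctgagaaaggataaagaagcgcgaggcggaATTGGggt
Sox11, chr12:27342719-27342968, minus strand: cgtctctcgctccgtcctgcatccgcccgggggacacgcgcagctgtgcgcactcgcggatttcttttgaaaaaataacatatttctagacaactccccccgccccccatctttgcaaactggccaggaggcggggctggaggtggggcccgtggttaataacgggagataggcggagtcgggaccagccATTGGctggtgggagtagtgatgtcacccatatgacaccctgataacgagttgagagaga

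The Sox2 window was the only one of the 13 member windows with the octamer letters, which lie 99 to 93 bases before the start, and 4.12% of all 32851 windows hold them. The Sox2 window also held ACAAAG, a motif of 16.5% of all windows. CCAAT occurred in 33.8% of windows, once before Sox1, Sox2 and Sox11 and 4 times before Sox4. The Sox21 window held none of these letters, ACAATG included, which 10.7% of all windows hold. These are matches of letters in a short window and carry no measurement of binding.

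Signals are linear intensities. The low level was 78.8, the mean over arrays of the median log2 value, and a probe set was counted as detected at 1 log2 unit above it, a signal of 157.5. A gene was represented by its brightest probe set. A difference was called where it reached 2 log2 units (4-fold), with low values raised to the low level, and the brighter signal passed detection. With 1 array per kind of cell there was no replicate error and no test, so each difference is one between these arrays. The only measure of spread was technical, the SD of a difference among the detected probe sets of a gene, which over all genes was 0.56 to 0.85 log2 units, depending on the pair. In such bulk samples, fewer cells of a type and less RNA per cell cannot be told apart.

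The arrays were checked before the Sox genes were read. Detected genes numbered 9349 to 9575 per array. By listed markers, the array labelled HB9-GFP+ went against its label, with 0 of 9 motor neuron markers and 6 of 6 pluripotency markers detected. Olig1 and Olig2, listed here as markers of the oligodendrocyte lineage alone, were called higher on it than in ES cells. They read 619.7 against 61.9 and 320.6 against 0.9, and their link to the stated differentiation was not tested. This array is named by its label throughout and the Sox results are also given without it. On the Sox1 array 7 of 7 neural stem cell markers were detected, a list that includes Sox1, the sort gene. Of that list 4 were detected in ES cells, 3 on the array labelled HB9-GFP+ and 6 in granule cells. On the Sox1 array 5 of 6 pluripotency markers were detected too, at far lower signals than in ES cells (Pou5f1 at 514.3 against 9255.5). On the granule array 9 of 10 granule markers were detected, the mature marker Gabra6 being at 79.9, together with 9 of 9 astrocyte and Bergmann glia markers. Of the granule markers 5 were detected in ES cells, 3 on the array labelled HB9-GFP+ and 7 in Sox1 cells. Detection alone thus does not set these cells apart. The ratio of 3' to 5' signal for actin, a sign of RNA quality, was 5.08 in Sox1 cells, 4.55 in ES cells, 2.77 on the array labelled HB9-GFP+ and 2.29 in granule cells. For Gapdh the order differed, with 3.68 in Sox1 cells, 2.70 in granule cells, 1.99 in ES cells and 1.37 on the array labelled HB9-GFP+. Other scaling moved comparisons with the granule array. With centring on 7 reference genes, the share of all calls that were higher rose from 58.4% to 75.8% for granule against ES cells and from 64.5% to 80.8% for granule against Sox1 cells. It went from 42.3% to 21.0% for the array labelled HB9-GFP+ against granule cells. The median difference over genes detected on at least 1 array moved from -0.06 to 0.41, from -0.02 to 0.35 and from 0.10 to -0.48 in these pairs. Quantile normalization moved the share for the array labelled HB9-GFP+ against ES cells from 57.6% to 67.9%.

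Each of the 10 Sox genes was detected on at least 1 array, as were 11649 of the 18193 genes measured. The number of members detected was 4 in ES cells, 6 on the array labelled HB9-GFP+, 8 in Sox1 cells and 9 in granule cells. Sox1, Sox2, Sox4 and Sox21 were detected on all 4 arrays, Sox5 and Sox8 in granule cells alone. Among the 10 members, 5 were brightest in granule cells, 4 in Sox1 cells and 1 in ES cells, while over all detected genes 28.7% were brightest in granule cells and 20.4% in Sox1 cells.

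**Figure D1:**
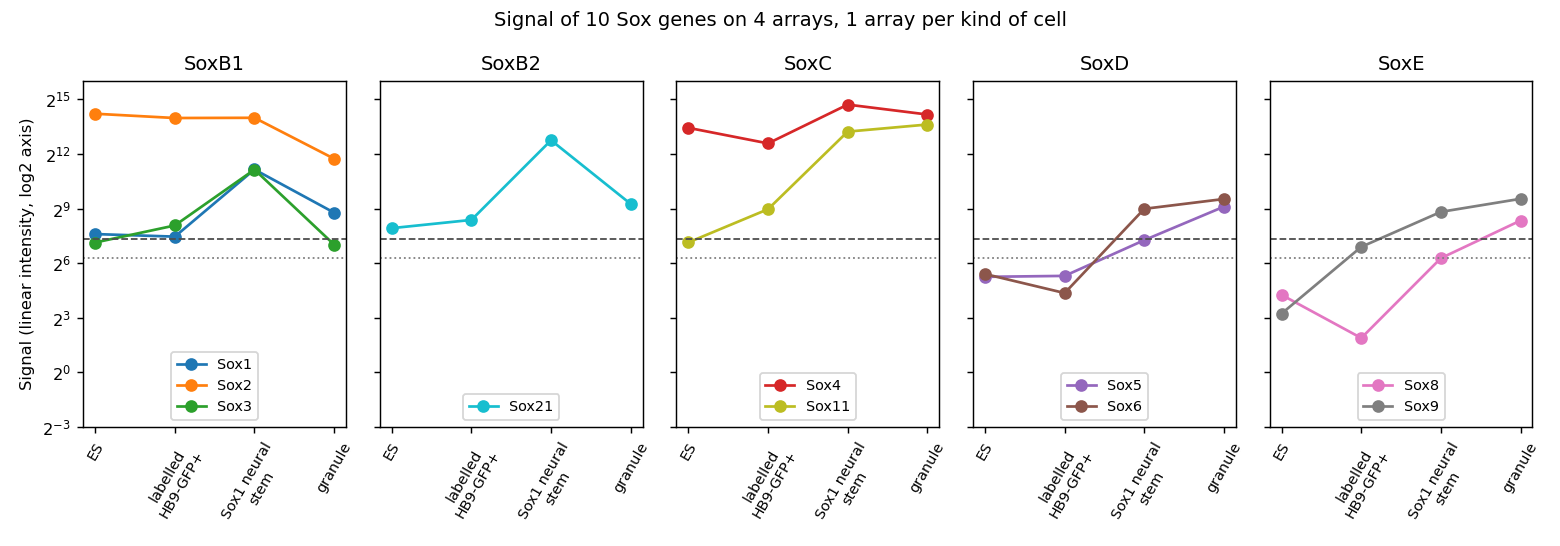
Signal (linear intensity, log2 axis) of the brightest probe set of each Sox gene on the 4 arrays, in panels by subgroup; the dotted line is the low level (78.8) and the dashed line the detection level (157.5). Sox1, Sox3 and Sox21 peak in Sox1 cells, Sox2 is lowest in granule cells, and Sox5, Sox6, Sox8 and Sox9 are detected only on the Sox1 and granule arrays or in granule cells alone.

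Among the SoxB1 genes, Sox2 was detected on all arrays at like signals on 3 of them, whereas Sox1 and Sox3 peaked in Sox1 cells. Sox2, measured by 1 probe set, had a signal of 18876.8 in ES cells, 16038.3 on the array labelled HB9-GFP+, 16172.6 in Sox1 cells and 3410.1 in granule cells. The first 3 values lie within 0.24 log2 units of each other, less than the technical spread. The granule value was lower by 5.54-fold than in ES cells, by 4.74-fold than in Sox1 cells and by 4.70-fold than on the array labelled HB9-GFP+. These folds lie near the threshold, and centring on reference genes brought each below it, at log2 differences of -1.94 and -1.76 for granule against ES and Sox1 cells and 1.59 for the array labelled HB9-GFP+ against granule cells. Quantile normalization took the last of these to 1.99. The direction was the same in each. Sox2 was thus called lower in granule cells than on each other array, a pattern shared by 0.868% of genes, and by 1.02% when the array labelled HB9-GFP+ is left out.

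Sox1 was the gene of the sort, so its high signal in Sox1 cells is what the sort selects and is given as a description. Its brightest probe set read 2262.1 there, 437.7 in granule cells, 193.5 in ES cells and 175.6 on the array labelled HB9-GFP+. The last 2 values differ by less than the technical spread. Its other probe set, 1422205_at, read 5.3 to 18.2 and was undetected on all arrays.

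Sox3, the X-linked SoxB1 gene of neural progenitors, followed a like pattern without having been sorted for. Its brightest probe set had a signal of 2254.6 in Sox1 cells, 268.6 on the array labelled HB9-GFP+, 140.4 in ES cells and 129.9 in granule cells, the last 2 below detection. On the Sox1 array it was 8.39-fold above the array labelled HB9-GFP+, and it was called higher than in ES and granule cells, with no fold given since those signals were below detection. As with Sox1, a further probe set (1450485_at) was dark, at 5.6 to 16.3.

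Sox21, the SoxB2 gene, was the member whose 2 probe sets were both brightest in Sox1 cells and both detected there. The brighter read 6877.5 in Sox1 cells, 609.4 in granule cells, 331.7 on the array labelled HB9-GFP+ and 242.4 in ES cells. The other read 533.3 in Sox1 cells and was undetected elsewhere, at 39.6 to 74.4. On the brighter probe set the Sox1 array exceeded the ES array by 28.4-fold, the array labelled HB9-GFP+ by 20.7-fold and the granule array by 11.3-fold.

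Sox1, Sox3 and Sox21 were therefore called higher in Sox1 cells than on each other array, as were 0.643% of all genes (0.72% without the array labelled HB9-GFP+, with the same 3 members). Averaging over probe sets, dark ones included, ended all 3 calls of Sox1 (log2 differences of 1.77, -1.18 and -1.84) and that of Sox3 against the array labelled HB9-GFP+ (-1.53). Centring on reference genes ended that of Sox1 against granule cells (-1.88). Sox21 kept its calls in both settings. The genes nearest to Sox1 in pattern over the 4 arrays, by the root mean square difference of centred log2 values, were Gli3, a hedgehog effector, and Efnb2, an ephrin ligand, each at 0.10 log2 units. Nearest to Sox21 were Zfp703 at 0.16 and Mn1 at 0.17, and to Sox3 Grb10 at 0.25 and Vgll3 at 0.26. For Sox2 they were Cenph at 0.03 and Rpl14 at 0.04. Genes within 0.25 log2 units numbered 55 for Sox2, 12 for Sox1, 4 for Sox21 and 0 for Sox3.

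Of the SoxC genes, Sox4 was detected in ES cells and the brightest Sox11 probe set was not. Sox4 was detected on every array, at 26730.9 in Sox1 cells, 18332.8 in granule cells, 11031.6 in ES cells and 6103.1 on the array labelled HB9-GFP+. Of these steps in order, the first 2 were smaller than the technical spread and the third was larger, at 0.85 against 0.60 log2 units. This order is that of the brightest probe set, and 3 of the 5 detected ones were brightest in granule cells. All 5 were higher in granule than in ES cells, by 0.73 to 1.88 log2 units. For the array labelled HB9-GFP+ against ES cells, 4 detected probe sets ran from -1.07 to 0.00. Its single call was a 4.38-fold lower signal on the array labelled HB9-GFP+ than in Sox1 cells. Without that array Sox4 had no call. Its 5 detected probe sets all pointed to higher signal in Sox1 than in ES cells, by 1.28 to 2.14 log2 units, and 1 of them passed 2. A further 3 Sox4 probe sets were dark on all arrays.

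The brightest Sox11 probe set read 141 in ES cells, 499.2 on the array labelled HB9-GFP+, 9555.6 in Sox1 cells and 12513.3 in granule cells. It was 19.1-fold higher in Sox1 cells and 25.1-fold higher in granule cells than on the array labelled HB9-GFP+. In ES cells it was below detection, so no fold is given, and the log2 differences from that dim value were 6.08 and 6.47. All 6 Sox11 probe sets were called higher on both the Sox1 and granule arrays than in ES cells, by 4.33 to 6.08 and by 2.84 to 7.60 log2 units. The 4.33 and 7.60 are lower bounds, both from 1431225_at, whose ES signal of 48.7 lay under the low level.

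The order of the Sox1 and granule arrays, by contrast, depended on which Sox11 probe set was read. Probe set 1436790_a_at read 13114 in Sox1 cells and 2406.5 in granule cells, a log2 difference (granule minus Sox1) of -2.45, whereas 1431225_at read 1582.9 and 15234.5, a difference of 3.27. Of the remaining 4 probe sets, 1453125_at was lower in granule cells (12827.8 in Sox1 cells and 5010.8 in granule cells), and 3 were higher there. Among 4436 genes with at least 2 probe sets detected on either array, Sox11 was the single one (0.0225%) with a probe set called in each direction between these arrays. At 2-fold in each direction there were 33 such genes (0.744%). The actin ratio of 3' to 5' signal also differed between these arrays, at 5.08 and 2.29, as did the Gapdh ratio, at 3.68 and 2.70, and their part in the Sox11 result was not tested. Between the array labelled HB9-GFP+ and ES cells, 1 of 6 Sox11 probe sets, again 1431225_at, was called higher (649 against 48.7), and the 6 differences ran from -0.40 to 3.04.

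**Figure D2:**
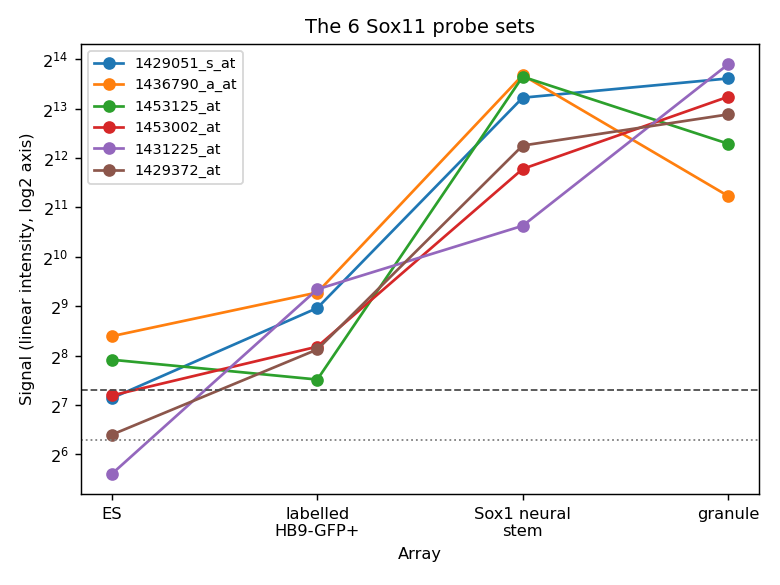
Signal (linear intensity, log2 axis) of the 6 Sox11 probe sets on the 4 arrays; the dotted line is the low level and the dashed line the detection level. All 6 are higher on the Sox1 and granule arrays than on the other arrays, but 1436790_a_at and 1453125_at fall from the Sox1 to the granule array while the other 4 rise.

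The nearest patterns to Sox11 were those of the cyclin gene Ccnd2 at 0.36 log2 units and the kinase gene Hipk2 at 0.45, and no gene lay within 0.25. Ccnd2 read 107.5 in ES cells, 769.4 on the array labelled HB9-GFP+, 11250.1 in Sox1 cells and 14613.2 in granule cells. For Sox4 the nearest were Man2a2 at 0.06 and Nsmaf at 0.07, with 71 genes within 0.25.

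The SoxD and SoxE members were not detected in ES cells or on the array labelled HB9-GFP+, and each had its highest signal in granule cells. Sox5 read 38 in ES cells, 39.4 on the array labelled HB9-GFP+, 153.6 in Sox1 cells, just under detection, and 549 in granule cells. Its 4 detected probe sets agreed in direction, with granule above Sox1 signals by 1.34 to 1.84 log2 units. The granule signal was at least 6.97-fold above those of the array labelled HB9-GFP+ and of ES cells, which lay under the low level. Both calls were lost with a low level 1 log2 unit higher (a difference of 1.80 in size) and with the mean over probe sets (1.30).

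Sox6, the other SoxD gene, was detected on both neural arrays. It read 42.3 in ES cells, 20.5 on the array labelled HB9-GFP+, 505.9 in Sox1 cells and 735.2 in granule cells. The last 2 values differ by less than the technical spread, and they exceed the first 2 by at least 6.42-fold and at least 9.33-fold. The 3 detected Sox6 probe sets were each called higher on both neural arrays than in ES cells, and 1426018_a_at was dark on all arrays. The call for Sox1 against ES cells was lost with a low level 1 log2 unit higher (1.68) and with the mean over probe sets (1.87). In the same settings the call for the array labelled HB9-GFP+ against Sox1 cells was lost (-1.68 and -1.87).

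Sox9, a SoxE factor of glial and cartilage fate, read 9.4 in ES cells, 118.9 on the array labelled HB9-GFP+, 450.5 in Sox1 cells and 740.5 in granule cells. Against the ES array it was at least 5.72-fold higher in Sox1 cells and at least 9.40-fold higher in granule cells. The call against ES cells was lost for Sox1 cells with a low level 1 log2 unit higher (1.52) and for both with the mean over probe sets (1.30 and 1.72). Of its other probe sets, 1424950_at was also above the ES array on both, by at least 1.40 and at least 1.94 log2 units, and 1433889_at was dark on all arrays.

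Sox8, the other SoxE member, was detected in granule cells alone, at 323.6. It read 77.3 in Sox1 cells, 19.1 in ES cells and 3.7 on the array labelled HB9-GFP+, all under the low level, so it was at least 4.11-fold higher in granule cells than on each. That bound lies just inside the threshold. It fell outside with quantile normalization (1.81 log2 units) and with the low level taken from 3 arrays, without the array labelled HB9-GFP+ (1.92). A low level 1 log2 unit higher took it to 1.04, and log2(value + 16) took the difference from Sox1 cells to 1.86. Over all genes, 2.9% were called higher in granule cells than on each other array (3.16% when the array labelled HB9-GFP+ is left out).

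The nearest patterns lay at 0.03 log2 units for Sox5 (Jph4 and Lmo2), 0.06 and 0.07 for Sox6 (Slitrk5 and Rai1) and 0.07 and 0.09 for Sox9 (Rtl6 and Msl3). Sox8, detected once, was matched at 0.00 by Rab9b and Grm5, and 242 genes lay within 0.25 of it.

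Markers of glia and of several other cell types were detected in greater number on the granule array than on the Sox1 array. The SoxD and SoxE members also had their highest signals in granule cells. Sox6 and Sox9 were detected in Sox1 cells too, at 505.9 and 450.5. On the granule array 9 of 9 astrocyte and Bergmann glia markers were detected, with a summed signal of 33339.2, against 4 of 9 on each other array, with sums of 16362.4 (ES), 15620.3 (labelled HB9-GFP+) and 21451.4 (Sox1). Gfap and Aqp4, which define astrocytes, read 2224.6 and 8741.8 in granule cells and lay under the low level on the other 3. Gja1, a gap junction gene of the list, went the other way and made up most of the sums elsewhere, at 8033.9 in granule cells, 14463.1 in ES cells, 14483.4 on the array labelled HB9-GFP+ and 20117.7 in Sox1 cells. Of 8 oligodendrocyte lineage markers, 7 were detected in granule cells, with a sum of 33648.5, of which Mbp made up 16565. In ES cells, on the array labelled HB9-GFP+ and in Sox1 cells 2, 4 and 2 were detected, with sums of 3226, 3166.5 and 1387.9. Such sums follow the brightest probe sets of a list and do not measure the amount of a cell type. Sox10, the SoxE gene of the oligodendrocyte lineage, read 685.2 in granule cells and 15.9 to 54.9 elsewhere on its brightest probe set. Another, 1424985_a_at, read 179.7 in granule cells and 119.5 in Sox1 cells, a log2 difference of 0.59 that was not called. The remaining one, 1425369_a_at, was dark on all arrays. In granule cells 7 of 8 Purkinje cell and interneuron markers, 4 of 6 microglia markers and 6 of 8 fibroblast markers were detected too. In Sox1 cells these numbers were 1, 0 and 1. The part of these cell types in the signals of Sox5, Sox6, Sox8 and Sox9 was not tested.

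**Figure D3:**
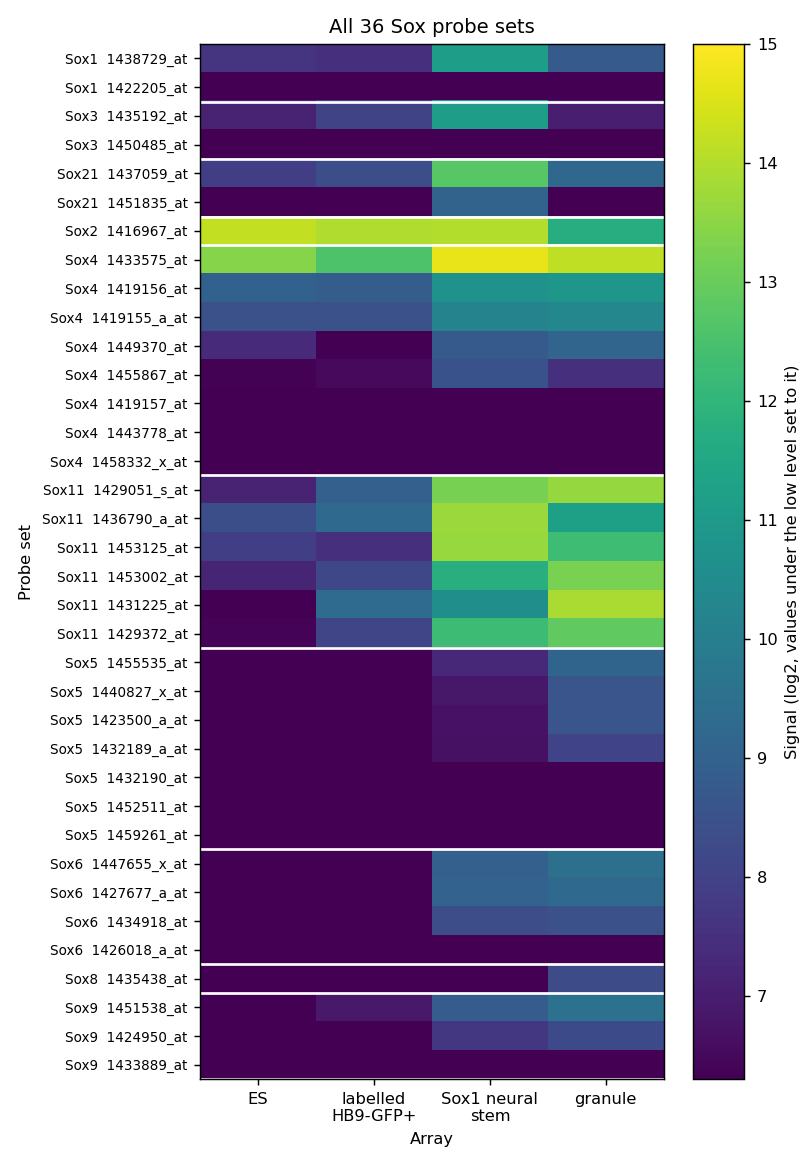
Signal (log2, values under the low level set to it) of all 36 Sox probe sets in rows, grouped by gene, on the 4 arrays in columns. Of the 36, 26 are detected on at least 1 array and 10 are dark on all, and the dark ones belong to Sox1, Sox3, Sox4, Sox5, Sox6 and Sox9.

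Over the 26 detected probe sets, 17 were brightest in granule cells, 8 in Sox1 cells, 1 in ES cells and 0 on the array labelled HB9-GFP+. Colours in the map of all probe sets are read along a row, since levels of different probe sets are not comparable.

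Read as a group, the 10 members had their largest median difference of the 6 pairs between the Sox1 and ES arrays. There 6 of 10 were called higher (Sox1, Sox3, Sox6, Sox9, Sox11, Sox21) and 0 lower, against 3.65% of all genes higher and 3.08% lower, or 5.7% and 4.81% of the genes detected on at least 1 array. The median log2 difference was 2.60 over the members and 0.00 over all genes. Leaving out Sox1, the sort gene, 5 of 9 members were higher. Of the 10 Sox genes that are no members, 1 was called higher (Sox13) and 0 lower in this pair, with a median of 0.00. With a gene taken as the mean over its probe sets, dark ones included, 3 of 10 members were called, Sox3, Sox11 and Sox21. In that setting calls over all genes, in either direction, fell from 1224 to 742.

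Between the granule and ES arrays 5 members were called higher (Sox5, Sox6, Sox8, Sox9, Sox11) and 1 lower (Sox2), against 7.09% and 5.05% of all genes. The median was 1.68 over the members and 0.00 over all genes. Of the 10 Sox genes that are no members, 1 was called higher and 1 lower, with a median of 0.00. This pair shares the ES array with the one before, and Sox6, Sox9 and Sox11 were called higher in both, as were 2.27% of genes. Sox6 and Sox11 were also called higher in both neural samples than on the array labelled HB9-GFP+, a pattern of 1.62% of genes.

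Between the granule and Sox1 arrays 4 members were called lower (Sox1, Sox2, Sox3, Sox21) and 1 higher (Sox8), against 2.12% of all genes lower and 3.84% higher. The SoxB genes were the lower ones, with log2 differences of -2.37 for Sox1, -2.25 for Sox2, -4.12 for Sox3 and -3.50 for Sox21. Sox4, Sox6, Sox9 and Sox11 lay between -0.54 and 0.72, and Sox5 was at 1.84. The Sox3 value is taken from a granule signal below detection. Centring on reference genes turned the 4 lower and 1 higher into 2 lower (Sox3, Sox21) and 2 higher (Sox5 at 2.32, Sox8), with Sox1 at -1.88 and Sox2 at -1.76. With quantile normalization 0 were higher, and without probe sets ending in _x_at or _s_at Sox11 was called lower as well (-2.45).

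**Figure D4:**
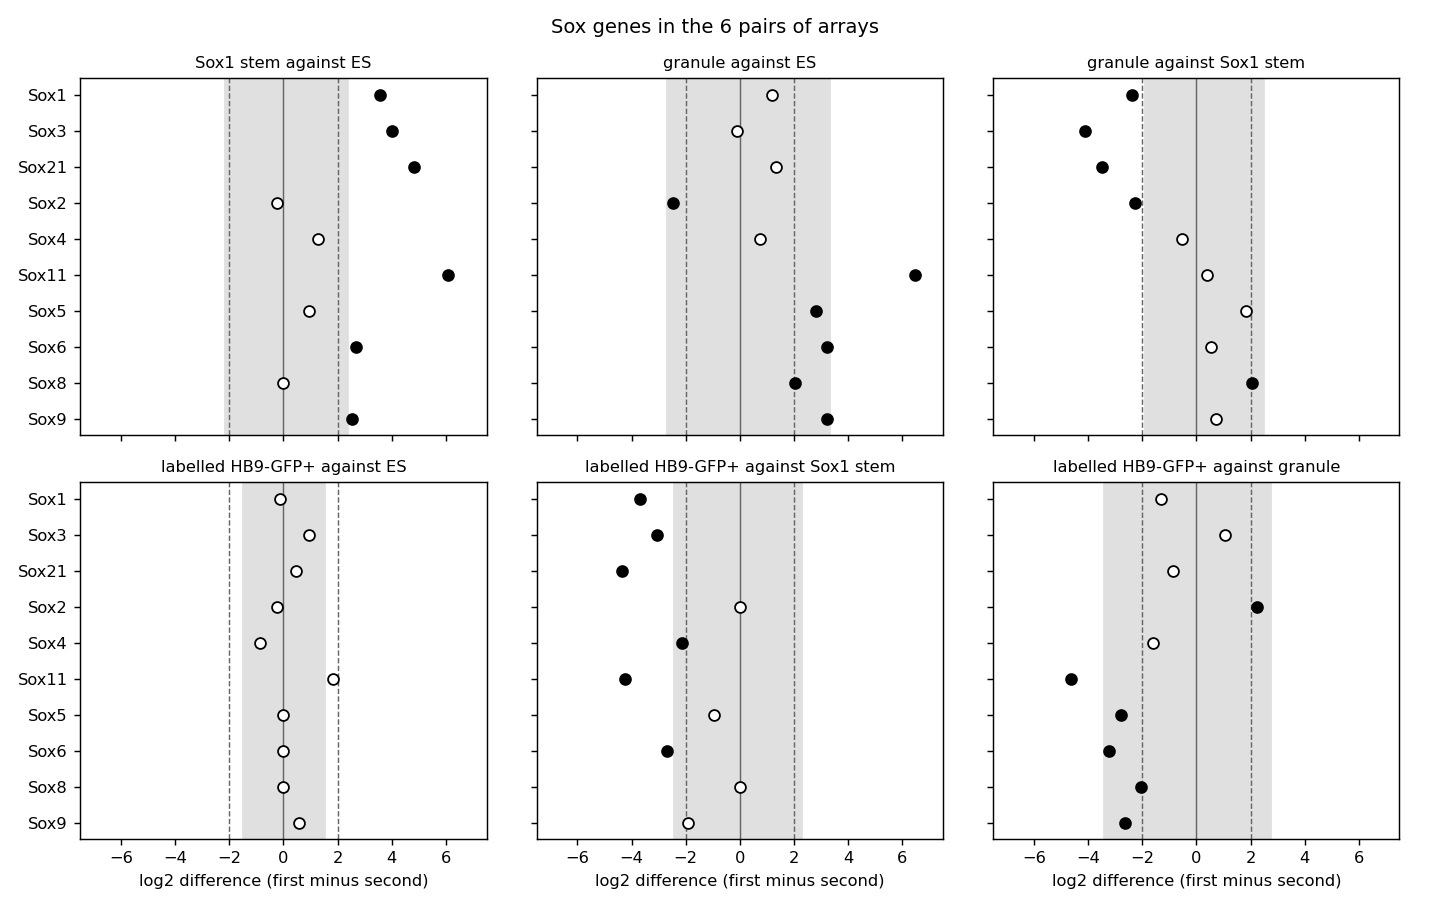
Log2 difference (first array minus second) of each Sox gene in the 6 pairs of arrays; filled points are called, open points are not, dashed lines mark 2 log2 units and the grey band holds the central 95% of all genes. Sox11 is plotted farthest from 0 against the ES array, from an ES signal below detection, and no Sox gene is called between the array labelled HB9-GFP+ and the ES array.

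Between the array labelled HB9-GFP+ and the ES array 0 of 10 members were called, near the 1.98% of all genes called in either direction (1.14% higher and 0.841% lower). The member differences ran from -0.85 (Sox4) to 1.82 (Sox11), the latter beyond the 1.54 that bounds the central 95% of all genes. At 2-fold, 1 member passed, Sox11, at 499.2 against 141, and the share of all genes passing 2-fold is not given here. Fibroblast markers also moved between these arrays, with 8 of 8 detected and a summed signal of 18209.1 on the array labelled HB9-GFP+ against 1 of 8 and 683.3 in ES cells. Col3a1 and Dcn, which define fibroblasts, lay under the low level in ES cells. Their part in the Sox11 and Sox4 differences was not tested.

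Against the Sox1 array, the array labelled HB9-GFP+ had 6 of 10 members lower (Sox1, Sox3, Sox4, Sox6, Sox11, Sox21) and 0 higher, where 4.01% of all genes were lower and 3.28% higher. With the mean over probe sets 2 remained called, Sox11 and Sox21, while calls over all genes fell from 1327 to 794. Against the granule array it had 5 lower (Sox5, Sox6, Sox8, Sox9, Sox11) and Sox2 higher, where 7.64% of genes were lower and 5.59% higher. These comparisons share the array labelled HB9-GFP+ and are not independent of each other.

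The other 10 Sox genes on the array were mostly dim. Those detected numbered 4 in ES cells, 3 on the array labelled HB9-GFP+, 3 in Sox1 cells and 2 in granule cells. Sox12, the remaining SoxC gene, was detected on all 4, at 255.5, 249.7, 599.9 and 796.5 in the order ES, labelled HB9-GFP+, Sox1 and granule. Sox13, the remaining SoxD gene, differed from Sox5 and Sox6 in that it was highest in Sox1 cells, at 870.9, and under the low level in granule cells, at 58.7. Its other values were 189.7 in ES cells and 394.1 on the array labelled HB9-GFP+. Sox17, the endoderm factor of SoxF, read 444.5 in ES cells, 132.2 on the array labelled HB9-GFP+, 220 in Sox1 cells and 30.2 in granule cells. Those values are from 1429177_x_at, and its other probe set, 1421657_a_at, was undetected on all arrays, at 18.7 to 79.1. Sox15 was detected in ES cells and on the array labelled HB9-GFP+, at 180.9 and 336.8, and lay under the low level on the others. Sox7, Sox14, Sox18, Sox30 and Sry were undetected on all 4 arrays.

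Known partners and targets of each subgroup were read beside the members; the median over all genes was 0.00 in each pair. Of 15 measured partners and targets of Sox2 in pluripotent cells, 15 were detected in ES cells, 15 on the array labelled HB9-GFP+, 10 in Sox1 cells and 1 (Klf4) in granule cells. Between the Sox1 and ES arrays 12 of 15 were lower and 0 higher, where 3.08% of all genes were lower, with a median log2 difference of -3.85. Pou5f1 was 18.0-fold lower and Nanog, a homeodomain factor of pluripotency, 14.4-fold lower. Tdgf1, a Nodal co-receptor gene, was 67.5-fold lower and Fbxo15, a target of Sox2 and Oct4, read 105 against 6857.6. Sox2 itself differed by 1.17-fold between these arrays.

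Of 16 partners and targets of SoxB1 in neural progenitors, 11 were higher in Sox1 than in ES cells and 0 lower (median 3.06), where 3.65% of all genes were higher. Fabp7, the lipid-binding protein of radial glia, was at least 273-fold higher, and Pax6, a partner of Sox2 in eye and brain, 13.8-fold higher. The POU genes Pou3f3 and Pou3f2, whose products pair with Sox2 in neural cells, read 5589.7 against 124.2 and 697.9 against 44.4. Pou3f1 read 1347.8 on the array labelled HB9-GFP+, close to the 1295.2 of the Sox1 array, and 341.5 in ES cells. Between the granule and Sox1 arrays 5 of the 16 were lower and 0 higher, where 2.12% of all genes were lower, with Gli3 5.35-fold and Prom1, a surface protein of progenitors, 4.87-fold lower. Fabp7 (17695 against 21466) and Pou3f3 (3604.4 against 5589.7) differed by less than 2-fold.

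Of 14 partners and targets of SoxC in young neurons, 5 were higher in Sox1 than in ES cells and 0 lower (median 1.38), and 8 were higher in granule than in ES cells and 0 lower (median 2.99), where 3.65% and 7.09% of all genes were higher. Of the 14, 7 were detected in ES cells, 6 on the array labelled HB9-GFP+, and 14 in Sox1 and in granule cells. Dcx, a microtubule protein of migrating neurons, read 2.2 in ES cells, 20.4 on the array labelled HB9-GFP+, 836.8 in Sox1 cells and 9634.5 in granule cells. Stmn2 and Neurod1 of the list were lower in Sox1 than in ES cells, at 2466.9 against 5260.3 and 562.8 against 752.6. On the array labelled HB9-GFP+ Stmn2 read 9013.3. Map2, a dendritic microtubule protein, was 6.97-fold higher in granule than in Sox1 cells, and 6 of 14 genes of the list were called higher in that pair with 0 lower, where 3.84% of all genes were higher. Elavl4, a neuronal RNA-binding protein gene, read 4564.4 in granule cells and 1675.1 in Sox1 cells.

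Of 14 measured SoxE targets in glia, 12 were higher in granule than in Sox1 cells and 0 lower, with a median of 4.29, where 3.84% of all genes were higher. Nfia, which acts with Sox9 in gliogenesis, was 51.5-fold higher, at 14141.8 against 274.4, while Sox9 itself differed by 1.64-fold. Of 9 cartilage targets of SoxD and SoxE, 1 was detected in Sox1 cells, Col2a1 at 915.3, and 1 in granule cells, Col9a1 at 1010.2. None of the 9 was detected in ES cells or on the array labelled HB9-GFP+.

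**Figure D5:**
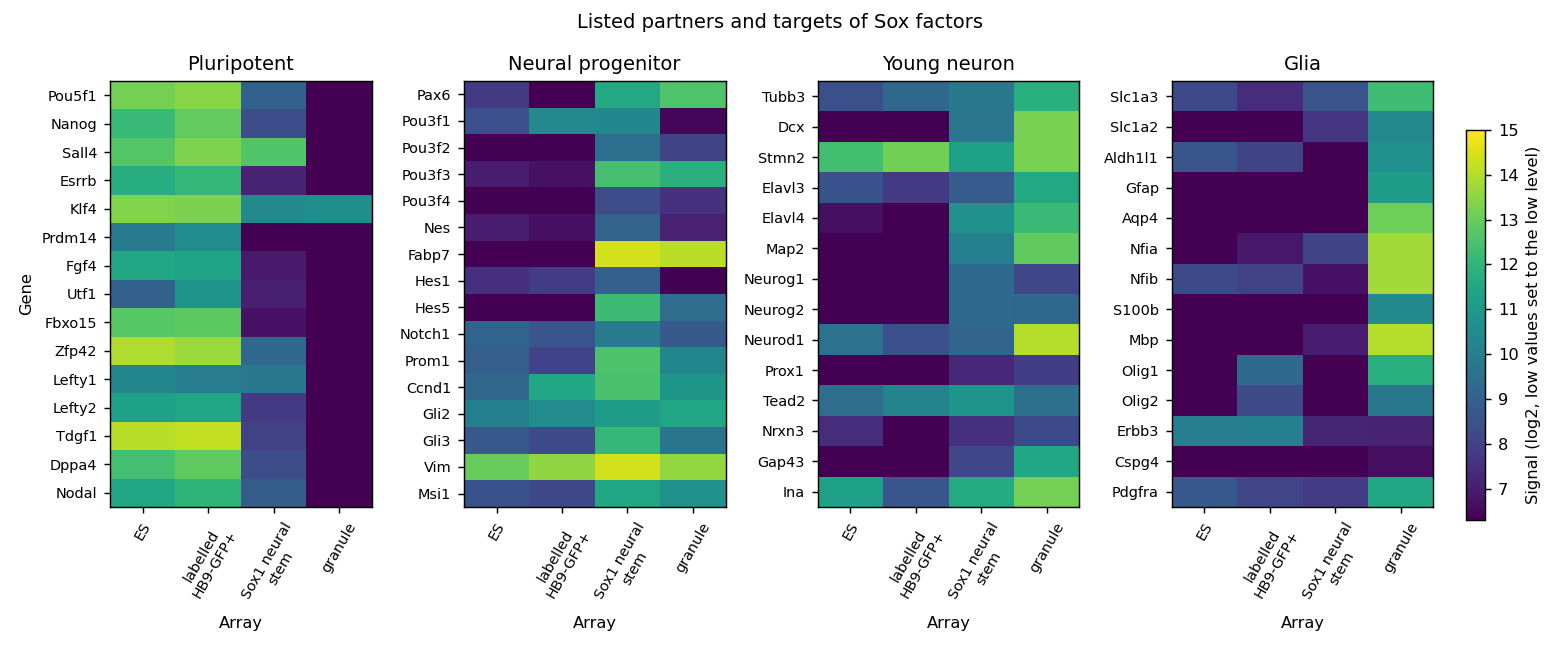
Signal (log2, values under the low level set to it) of listed partners and targets of Sox factors in rows on the 4 arrays in columns, in panels by list. The pluripotent list is bright in ES cells and on the array labelled HB9-GFP+, where 15 of 15 genes are detected, and the glial list is bright in granule cells, where 12 of 14 are detected.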

How the data were processed

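Biotin-labelled cRNA of 4 samples was hybridised to Affymetrix arrays, per the labels' protocols. For each of 45101 probe sets the authors deposited a linear intensity (0.1 to 43110.3). GCRMA is named in the submitters' processing notes. Each array's mean, after trimming 2% at each end, was 500.0, the form of a scaled average difference, so the step that made the values is uncertain and the arrays are forced to a common average. No genome build is given in the sources used here.

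Symbols came from the platform annotation (34958 probe sets with 1 symbol, 932 with several, 9211 with none). The symbols of all 36 Sox probe sets equalled those of RefSeq on GRCm38.p6. The 64 control probe sets entered no gene. Values were put on the log2 scale without a pseudocount, raising low values to the low level. Folds against a value under the low level are lower bounds ("at least"). Where it lay between the low and detection levels, signals or log2 differences are given and no fold. A gene's probe set is the one with the highest mean of these log2 values.

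Named genes are all members and other Sox genes, up to 4 called genes per list and comparison by size, Pou5f1, Nanog, Pax6, Pou3f2 and Fabp7, and the 2 nearest patterns per called member. Genes outside this rule are Klf4, Pou3f1, Elavl4, Stmn2, Nfia, Col2a1, Col9a1, Gli3, Prom1, Map2 and the cell type markers. They were chosen with values in view or as markers. The members, lists and rules were chosen with earlier results of these data known. Some listed genes were not analysed here. Precision is limited by the number of arrays. The 12 alternatives covered scaling, probe set choice, low level, detection and the size of a call. The calling rule was tested on simulated data with noise below the technical spread. Its changes exceeded the threshold and were placed only in genes far above the low level. It therefore says nothing of calls near the low level or the threshold. Python 3.11.15, numpy 2.4.6, pandas 2.3.3, scipy 1.17.1 and matplotlib 3.10.9 were used.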

Additional observations from a re-analysis of the deposited data

How the results depend on the processing

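Under 9 alternatives that give a difference (scaling, probe set choice, low level, detection), 228 of 261 recomputed calls of the 29 called Sox differences were kept, and 0 changed sign. Averaging all probe sets of a gene, which counts dark ones, lost the most, 12 of 29. This left 3 members called for the Sox1 against the ES array, 2 for the array labelled HB9-GFP+ against the Sox1 array, and 2 detected on the ES array (Sox2 and Sox4). A low level 1 log2 unit higher lost 8 calls and also left 2 detected on the ES array, as did detection at 2 log2 units above the low level. At 8-fold, 3 members were called for granule against ES (Sox6, Sox9, Sox11), 2 for granule against Sox1 (Sox3, Sox21) and 2 for the array labelled HB9-GFP+ against granule (Sox6, Sox11). At 2-fold, 1 was called for the array labelled HB9-GFP+ against ES. The shares of all genes at 8-fold and 2-fold are not given here. Leaving out probe sets ending in _x_at or _s_at brought Sox11 from -4.65 to -1.96 for the array labelled HB9-GFP+ against granule, since 1436790_a_at then represents it. Other totals of called members stayed within 1.5 times, but the split for granule against Sox1 went from 1 higher and 4 lower to 2 and 2 with centring on reference genes and to 0 and 4 with quantile normalization. Detection without a detection level gives no value and was not run. No paired analysis was possible because each group had 1 array. Folds of Sox5, Sox6, Sox8 and Sox9 are bounds wherever the dimmer array lay under the low level. With 1 array per kind of cell, the spread between cultures or animals is unknown.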
